A study of Mus musculus with 6 samples.

Results

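The genes described here are the matrix metalloproteinases (MMPs), the ADAMTS proteases, the ADAMTS-like proteins and the tissue inhibitors of metalloproteinases (TIMPs), in bone marrow mesenchymal stem cells (BMSCs) of mice with and without Grx2. They were chosen by symbol alone (Mmp, Timp, Adamts or Adamtsl followed by a number, with an optional a or b for Mmp genes). The rule found 47 of the 22984 genes in the deposited table: 19 MMP, 19 ADAMTS, 5 ADAMTS-like and 4 TIMP genes. Of these, 30 had a mean of at least 1 FPKM (fragments per kilobase of gene, scaled to the mapped fragments of the library) over the 6 libraries and were tested, and 17 lay under that level and are counted apart.

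The series compared 3 Grx2+/+ libraries with 3 Grx2-/- libraries of BMSCs, plastic-adherent marrow cells able to become osteoblasts, adipocytes or chondrocytes. Grx2 is glutaredoxin 2, an enzyme that reverses disulfide and glutathione bonds on proteins, largely in mitochondria, and its gene is Glrx2. The design text writes O-BMSCs without expanding the prefix. The sources used here do not give strain, age, sex, passage, the targeted allele or the cells in which it is deleted. Nor do they tie the 3 replicates to different mice or dishes: each p-value therefore measures the spread among these libraries alone, which may be technical.

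MMPs are zinc-dependent endopeptidases that cut collagens, proteoglycans and other matrix proteins, and are made as inactive precursors. TIMPs block their active sites, and TIMP3 also blocks ADAMTS proteases. ADAMTS proteases are secreted relatives that cleave proteoglycans such as aggrecan and versican or process procollagens, while ADAMTS-like proteins share their accessory domains, lack the protease domain and bind the microfibril-rich matrix. In bone, collagenase MMP13 and the membrane-bound MMP14 are known for collagen turnover during remodelling.

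Whole reads worked back from the FPKM values put the depth at 40797879 to 41794919 reads per library, so the least covered tested member (Adamts3) still had 2314 reads in all. Glrx2 was at 3.57, 3.74 and 3.54 FPKM in Grx2+/+ replicates 1 to 3 and at 0.00461, 0 and 0 in Grx2-/-. Between replicates of a group, the mean chi-square per gene against sampling noise ran from 3.86 to 22.8, with Grx2+/+ replicate 2 and Grx2-/- replicate 1 furthest from their groups, and no library was a copy of another. All 9 listed stromal markers were tested (4 higher, 4 lower, 1 did not pass). Their summed levels were 298 to 310.0 FPKM in Grx2+/+ and 707 to 786 in Grx2-/-. The sum rose through Ly6a (means of 57.5 FPKM in Grx2+/+ and 362 in Grx2-/-) and Thy1 (11.85 and 167), and not through the markers in general. The 4 lower markers were Nt5e, Pdgfrb, Eng and Lepr, which was at 3.83 FPKM in Grx2+/+ and 0.0351 in Grx2-/-. Marker sums also differed for other cell types. They ran from 882 to 2563 FPKM in Grx2+/+ and from 1.81 to 2.12 in Grx2-/- for 10 neutrophil markers (7 tested, 7 lower). For 9 macrophage markers (8 higher, 1 did not pass) they ran from 1405 to 1535 and from 2336 to 3162. For 6 osteoblast markers (5 tested, 5 lower) the ranges were 297 to 329 and 13.7 to 16.9. For 6 osteoclast markers (3 tested, 3 lower) they were 109.5 to 126 and 73.6 to 85.5. For 6 endothelial markers (5 tested, 4 lower) they were 17.0 to 20.1 and 2.87 to 3.05. The endothelial marker Vwf did not pass (means of 1.71 and 1.96 FPKM). Tek, under the filter and not tested, went from 0.265 to 0.609 FPKM without overlap. In these bulk samples fewer cells of a type and less RNA per cell cannot be told apart.

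Of the 30 tested members, 14 were higher in Grx2-/-, 15 were lower and 1 did not pass (limma with Benjamini-Hochberg adjustment over all 11083 genes tested, adjusted p under 0.05). Among all genes tested 67.4% passed, 42.7% higher and 24.6% lower, so passing the test was itself common. The groups did not overlap for 29 of the 30, where 73.1% of all genes tested did not overlap. With an absolute log2 fold change of at least 1 as well, 15 members passed, against 10.0% of all genes tested. Of the 30, 5 (Mmp3, Mmp9, Adamts3, Adamts6 and Adamts14) passed the filter only through the group in which they were high, and therefore had to differ. Among the other 25, with both group means at 1 FPKM or more, 24 passed and 10 passed with a log2 fold change of at least 1 in size, where the same shares of all such genes were 65.7% and 7.36%. The median of the 30 log2 fold changes was -0.09 and that of their sizes 0.99, beside 0.09 and 0.24 for all genes tested. These are descriptions of the list, without a test.

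By family, 4 MMP genes rose and 9 fell of 13 tested. Of 10 ADAMTS genes 4 rose, 5 fell and 1 did not pass, all 4 tested ADAMTS-like genes rose, and of 3 TIMP genes 2 rose and 1 fell. Log2 fold changes below are Grx2-/- over Grx2+/+ on the log2(FPKM + 1) scale, with their standard errors (SE) and n = 3 libraries per group. That scale understates the change of low genes, so a ratio of mean FPKM (times higher or lower) is given beside most of them. Levels are listed for replicates 1, 2 and 3 in that order.

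**Figure D1:**
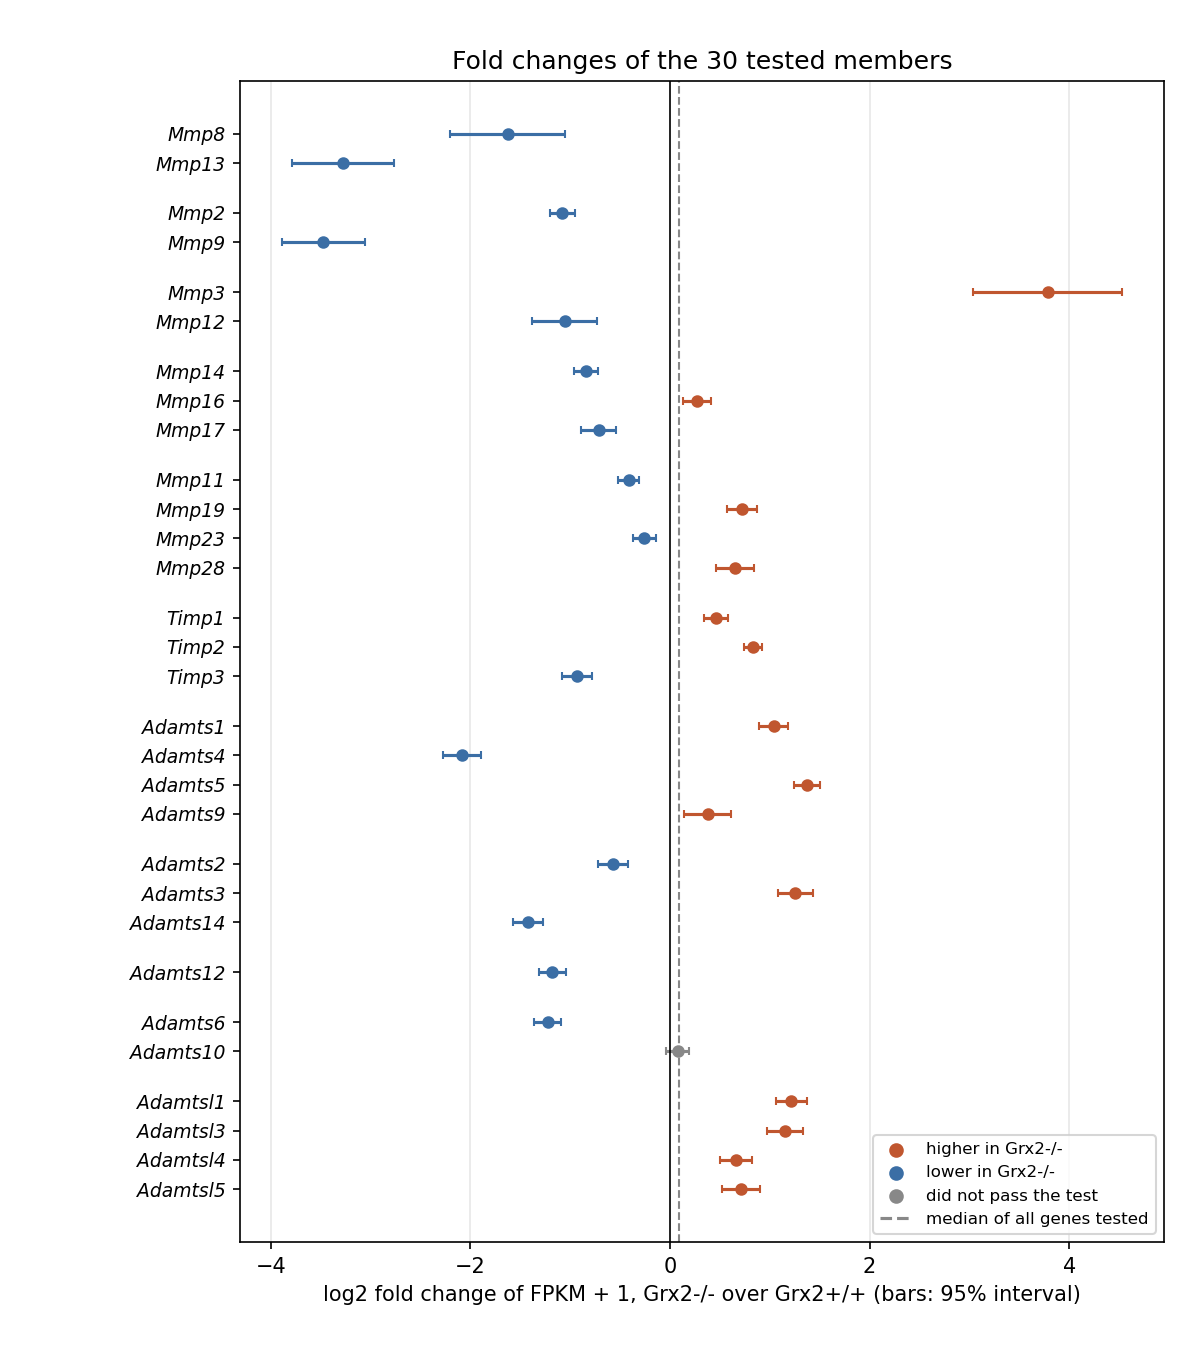
Log2 fold changes on the log2(FPKM + 1) scale (x axis, Grx2-/- over Grx2+/+) of the 30 tested members, grouped by role. Bars are 95% intervals from limma, colours give the direction of genes that passed, and the dashed line is the median of all genes tested (0.09); Mmp3 lies furthest to the right (3.78) and Mmp9 furthest to the left (-3.47).

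Of the 6 MMP genes that changed by at least 1 on the log2 scale, 4 lie in 1 row on chromosome 9. Of all 13 tested MMP genes, the same 4 lie in that row, and an effect of position was not tested. Mmp3 and Mmp9, counted among the 6, passed the filter only through the group in which they were high. In the RefSeq table of GRCm38.p6, 10 protein-coding MMP genes stand there side by side, in the order Mmp13, Mmp12, Mmp1b, Mmp3, Mmp1a, Mmp10, Mmp8, Mmp27, Mmp20 and Mmp7. The rule found 7 of them, and 4 were tested. Mmp1a, Mmp20 and Mmp7 fit the rule but had no row under these symbols in the deposited table, so they were not analysed. Mmp3 rose while its neighbours Mmp13, Mmp12 and Mmp8 fell. To show the start regions of the largest rise and the largest fall in this row, the 250 bases before each RefSeq start are printed here from the gene's strand, 5′ to 3′, with matches to an AP-1 site, a RUNX site and a TATA box in capitals.
Mmp13, GRCm38.p6 chr9:7272264-7272513, plus strand: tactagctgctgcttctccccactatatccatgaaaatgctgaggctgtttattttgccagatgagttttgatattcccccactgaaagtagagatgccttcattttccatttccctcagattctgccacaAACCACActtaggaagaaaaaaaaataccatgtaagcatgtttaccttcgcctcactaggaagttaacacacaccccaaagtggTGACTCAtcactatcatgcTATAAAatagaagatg
Mmp3, GRCm38.p6 chr9:7445572-7445821, plus strand: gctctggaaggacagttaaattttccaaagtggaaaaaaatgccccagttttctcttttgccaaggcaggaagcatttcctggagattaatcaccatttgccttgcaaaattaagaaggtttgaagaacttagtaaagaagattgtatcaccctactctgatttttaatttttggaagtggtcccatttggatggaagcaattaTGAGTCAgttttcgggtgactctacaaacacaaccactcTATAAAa

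Both windows hold an AP-1 match, TGACTCA at 35 bases before the start of Mmp13 and TGAGTCA at 46 bases before that of Mmp3. Both also hold a match to the letters of a TATA box, TATAAA, at 16 and 7 bases. These distances run to the RefSeq start, which was not compared with the start used in these cells. AP-1 sites bind dimers of the Fos and Jun proteins. Only Mmp13 of these 2 also holds a RUNX match, AACCACA, at 119 bases. Of the 47 genes, 32 had a promoter in the RefSeq table. An AP-1 match (TGANTCA, the same on both strands) was found in 4 of these 32, all in the row on chromosome 9 (Mmp13, Mmp3, Mmp10 and Mmp1b), beside 6.87% of all 27025 promoters. AACCACA, read on both strands, was found in Mmp13 and Mmp27 (4.46% of all promoters). TATAAA, read on the gene's strand, was found in 6 of the 32 (8.12% of all), Mmp13, Mmp3, Mmp10, Mmp1b, Adamts1 and Adamtsl2. The antioxidant response core TGACNNNGC, read on both strands, was found in 5 of the 32, Timp2, Timp4, Adamtsl5, Adamts2 and Mmp15 (10.1% of all). No match to the 4 motifs was listed for Mmp12 or Mmp8, but 15 of the 47 members had no promoter to search. Only the first listed promoter of each gene was searched. A match here is a run of letters and not a measured binding site.

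Stromelysin-1, encoded by Mmp3, cleaves proteoglycans and fibronectin and activates other pro-MMPs. It was at 0.0272, 0.836 and 0.482 FPKM in Grx2+/+ and 30.3, 11.9 and 17.1 in Grx2-/-, from 2, 62 and 36 reads in Grx2+/+ and 2278, 882 and 1262 in Grx2-/-. The groups did not overlap, Grx2-/- replicate 1 was the highest and Grx2+/+ replicate 1 had almost none. The log2 fold change was 3.78 ± 0.32 (limma adjusted p = 1.98e-05), with a ratio of mean FPKM of 44.0. The same fold change was 6.24 with voom on the recovered reads and 6.20 with a pseudocount of 0.01. Mmp3 passed the filter only through Grx2-/-, so its p-value is not separate evidence of a difference.

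Collagenase-3, encoded by Mmp13, cuts fibrillar collagen and is made by osteoblasts and hypertrophic chondrocytes. It went the other way, with 54.9, 79.5 and 60.2 FPKM in Grx2+/+ and 8.16, 3.88 and 5.83 in Grx2-/-. Every Grx2-/- library was far below every Grx2+/+ library (log2 fold change -3.27 ± 0.22, limma adjusted p = 5.25e-06, 10.9 times lower by mean FPKM). Osteoblast markers were lower in the same libraries, and their part in the fall of Mmp13 was not tested.

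Macrophage elastase, encoded by Mmp12, was at 16.8, 16.6 and 16.9 FPKM in Grx2+/+ and 9.83, 5.89 and 7.37 in Grx2-/- (log2 fold change -1.05 ± 0.14, limma adjusted p = 0.000265, 2.18 times lower). Its fall stood beside higher macrophage markers: the 9 listed genes summed to 1405, 1535 and 1420 FPKM in Grx2+/+ and 2336, 3162 and 2848 in Grx2-/-. Within Grx2-/-, the order of the libraries was opposite, with Mmp12 highest and the macrophage sum lowest in replicate 1.

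Neutrophil collagenase, encoded by Mmp8, was at 4.40, 11 and 6.23 FPKM in Grx2+/+ and 1.32, 1.64 and 1.59 in Grx2-/- (log2 fold change -1.63 ± 0.25, limma adjusted p = 0.000588, 4.75 times lower by mean FPKM). Grx2+/+ replicate 2 was the highest, and the groups did not overlap. The remaining members of the row were under the filter. Mmp27 had 41, 65 and 53 reads in Grx2+/+ and 15, 11 and 14 in Grx2-/-, and Mmp10 had 8, 5 and 27 against 5, 3 and 6. Mmp1b, a relative of Mmp1a, had 0 reads in every Grx2+/+ library and 4, 0 and 1 in Grx2-/-, and is uncertain at so few reads.

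**Figure D2:**
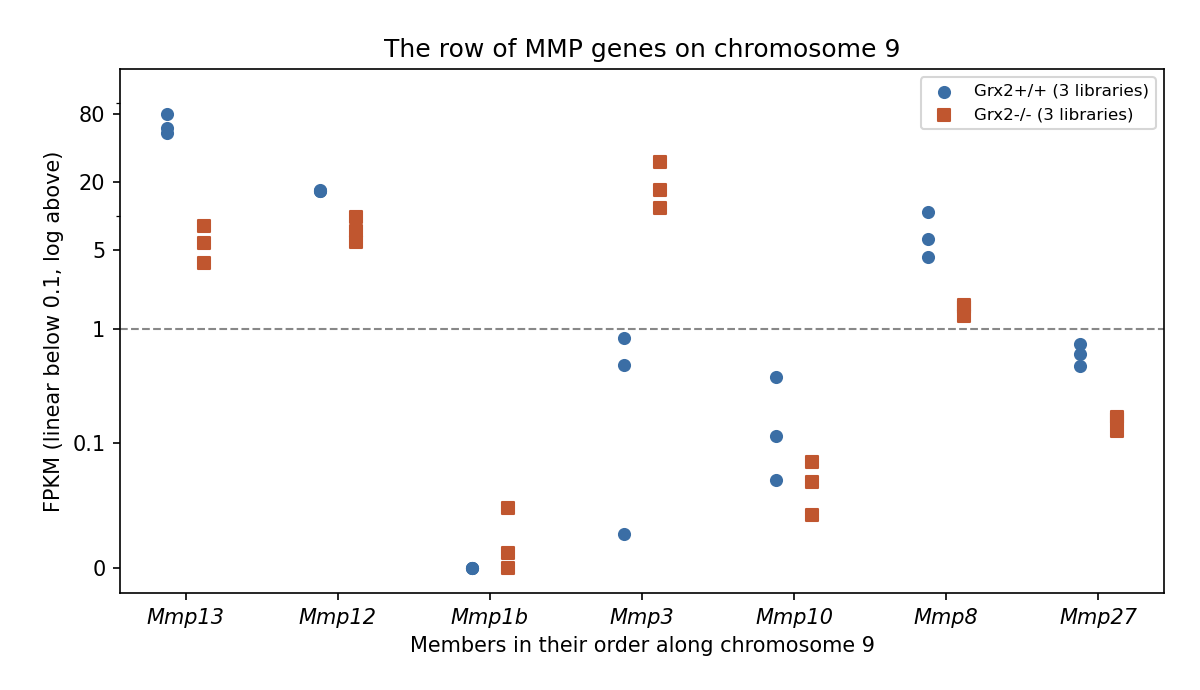
FPKM per library (y axis, linear below 0.1 and logarithmic above) of the 7 members in the row on chromosome 9, in their order along it; circles are Grx2+/+ and squares Grx2-/-, and the dashed line marks 1 FPKM. Mmp3 is the member of the row with all Grx2-/- libraries far above the Grx2+/+ ones, between Mmp13, Mmp12 and Mmp8, which are lower in Grx2-/-.

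The gelatinases degrade denatured collagen and basement membrane collagen. Mmp2, the form made by stromal cells, was among the most abundant proteases, with 269, 252 and 266 FPKM in Grx2+/+ and 131, 114 and 126 in Grx2-/- (log2 fold change -1.08 ± 0.054, limma adjusted p = 9.65e-07, 2.12 times lower). Mmp9, the form abundant in neutrophils and osteoclasts, was at 13.7, 23.2 and 16.3 FPKM in Grx2+/+ and 0.451, 0.910 and 0.620 in Grx2-/- (-3.47 ± 0.18, limma adjusted p = 1.11e-06, 26.8 times lower). Its Grx2-/- values all lay under 1 FPKM. Mmp9 thus passed the filter only through Grx2+/+, and its p-value is not separate evidence of a difference.

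The neutrophil markers were lower in the same libraries, and their order among the Grx2+/+ libraries matched that of Mmp8 and Mmp9. In Grx2+/+ the sum of the 10 markers (882, 2563 and 1406 FPKM) was highest in replicate 2 and lowest in replicate 1, as were Mmp8 and Mmp9, and also Mmp13 and Mmp3. In Grx2-/- the sum (1.86, 1.81 and 2.12 FPKM) was lowest in replicate 2, where Mmp8 and Mmp9 were highest. These sums are near the floor and close together, so their order says little. Per 1000 FPKM of these markers, Mmp8 was at 4.98, 4.28 and 4.43 FPKM in Grx2+/+ and 706, 907 and 749.9 in Grx2-/-. On the same scale Mmp9 was at 15.5, 9.05 and 11.6 FPKM in Grx2+/+ and 242, 502 and 292 in Grx2-/-. The Grx2-/- values divide by marker sums of only 1.81 to 2.12 FPKM, so even a low level of either gene gives a large value there. Ly6g and Retnlg were at 0 in every Grx2-/- library. Mmp8 was at 1.52 ± 0.176 FPKM (SD, n = 3) in Grx2-/-. Of 6 markers of osteoclasts, which also make Mmp9, the 3 tested (Acp5, Ctsk and Atp6v0d2) were lower. Ctsk held most of their sum, with 95.1 to 107 FPKM in Grx2+/+ and 70.8 to 81.7 in Grx2-/-. Dcstamp, under the filter and not tested, went the other way, from a mean of 0.320 to 1.03 FPKM without overlap. The part of either cell type in these falls was not tested.

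**Figure D3:**
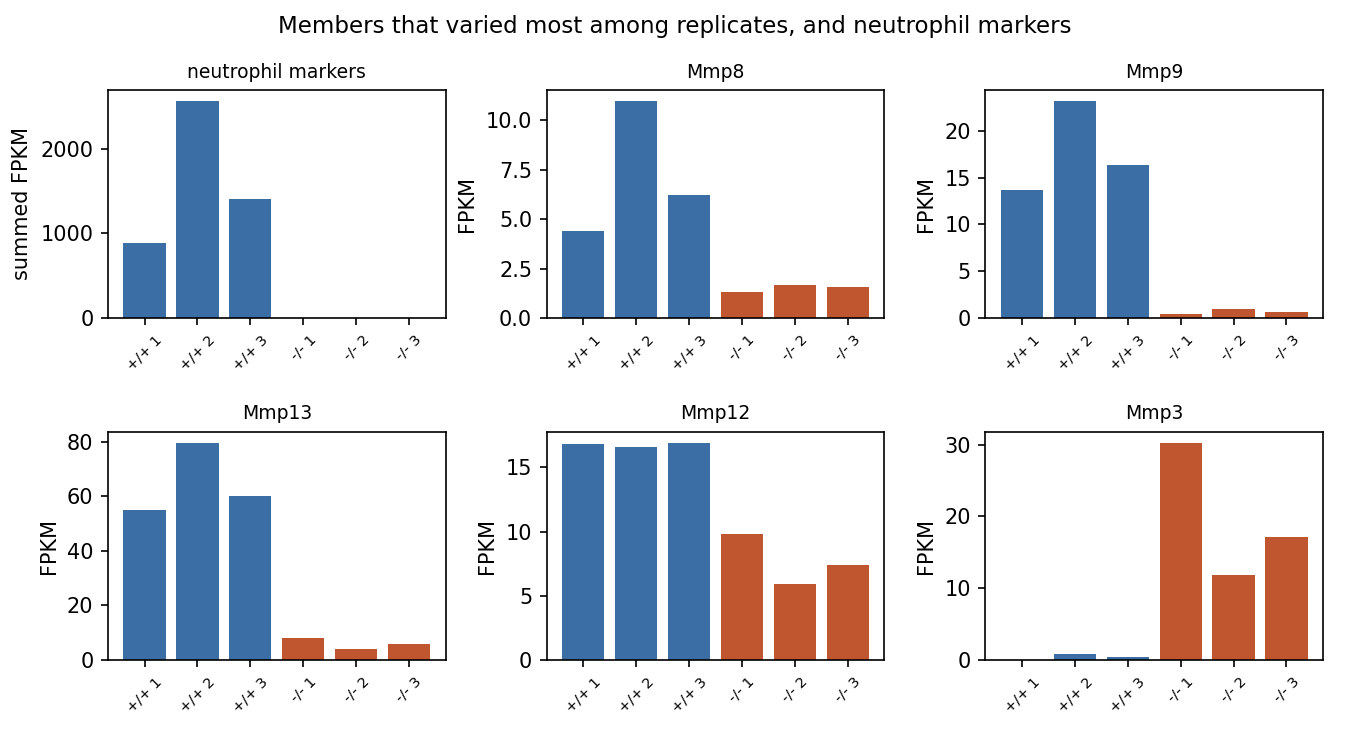
Level in each library (bars, FPKM, y axes from 0) of the 10 neutrophil markers summed and of 5 MMP genes; blue bars are Grx2+/+ and orange bars Grx2-/-, replicates 1 to 3 from left to right. Mmp8, Mmp9, Mmp13 and Mmp3 share the order of the neutrophil sum within Grx2+/+ (lowest in replicate 1, highest in replicate 2), while Mmp12 is nearly level there and Mmp3 and Mmp12 are highest in replicate 1 within Grx2-/-.

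Several of these genes varied widely among replicates, in 1 group or in both. The coefficient of variation (SD over mean) was 90.4% for Mmp3, 47.2% for Mmp8, 27.8% for Mmp9, 19.9% for Mmp13 and 1.10% for Mmp12 in Grx2+/+, where the median of the tested members was 4.43% and that of all genes tested 4.52%. In Grx2-/- it was 47.9% for Mmp3, 36.0% for Mmp13, 35.1% for Mmp9, 25.9% for Mmp12 and 11.6% for Mmp8, beside a median of 9.45% for the members and 5.29% for all genes tested.

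Membrane-type MMPs are anchored at the cell surface, and MMP14, the best known of them, cuts collagen and activates pro-MMP2 with the help of TIMP2. Mmp14 was at 248, 227 and 244 FPKM in Grx2+/+ and 142, 127 and 131 in Grx2-/- (log2 fold change -0.84 ± 0.052, limma adjusted p = 3.11e-06, 1.80 times lower). Mmp14 and Mmp2 fell together. The ratio of Timp2 to Mmp14 FPKM was 1.26, 1.39 and 1.30 in Grx2+/+ and 4.15, 4.26 and 4.25 in Grx2-/-. Of the lower expressed forms, Mmp17, held by a lipid anchor, fell from 4.46, 3.71 and 4.09 to 1.87, 2.26 and 2.17 FPKM (log2 fold change -0.71, 1.94 times lower). Mmp16, a transmembrane form, rose from 4.81, 5.68 and 5.23 to 6.51, 6.41 and 6.64 FPKM (0.27, and 0.17 with quantile normalization). Mmp15, Mmp24 and Mmp25 were under the filter.

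The remaining MMPs changed by less than 2-fold. Mmp19, a secreted MMP of broad substrate range, was at 11, 11.6 and 12 FPKM in Grx2+/+ and 21.5, 18.0 and 19.5 in Grx2-/- (log2 fold change 0.72 ± 0.065, limma adjusted p = 2.74e-05, 1.71 times higher). Mmp28, epilysin, rose from 1.82, 2.14 and 2.10 to 4.25, 3.60 and 3.40 FPKM (log2 fold change 0.65, 1.86 times higher). Mmp11, stromelysin-3, which furin activates inside the cell, fell from 15.8, 15.1 and 16.3 to 11.8, 11.1 and 11.7 FPKM (-0.41). Mmp23 fell from 24.9, 24.5 and 24.6 to 19.2, 21.9 and 20.4 FPKM (-0.26, and -0.39 with quantile normalization). In none of these 4 did the groups overlap, nor did they for 73.1% of all genes tested. Mmp19 overlaps Tmem198b (mean 5.15 FPKM) and Mmp23 overlaps Mib2 (mean 6.57 FPKM) in the RefSeq table, and with no strand setting given the reads of overlapping genes cannot be told apart.

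TIMP transcripts were the most abundant of all members, and their order changed between the genotypes. Timp3, which binds to the matrix, was at 767, 730.2 and 750.4 FPKM in Grx2+/+ and 436, 360.4 and 383 in Grx2-/- (log2 fold change -0.93 ± 0.066, limma adjusted p = 6.45e-06). Timp1, a secreted inhibitor of most soluble MMPs, was at 496, 551 and 542 FPKM in Grx2+/+ and 768, 703 and 715 in Grx2-/- (0.46 ± 0.051, limma adjusted p = 9.43e-05). Timp2, which also takes part in the activation of pro-MMP2, was at 314, 315 and 318 FPKM in Grx2+/+ and 591, 540.1 and 557 in Grx2-/- (0.83 ± 0.038, limma adjusted p = 6.06e-07).

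The order from high to low was therefore Timp3, Timp1, Timp2 in every Grx2+/+ library and Timp1, Timp2, Timp3 in every Grx2-/- library, and the ranges of neighbours in each order did not overlap. Timp3 made up 48.6, 45.7 and 46.6% of the summed TIMP FPKM in Grx2+/+ and 24.3, 22.5 and 23.1% in Grx2-/-. Timp4 was under the filter, with 0, 3 and 0 reads in Grx2+/+ and 13, 7 and 14 in Grx2-/-. Timp1, Timp3 and Timp4 overlap the neuronal synapsin genes Syn1, Syn3 and Syn2, which reached at most 2.00, 0.00337 and 0.0466 FPKM in any library.

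As a description without a test, summed TIMP levels overlapped, with 1577, 1597 and 1610 FPKM in Grx2+/+ and 1796, 1604 and 1655 in Grx2-/-. Summed MMP levels did not, with 672, 675 and 676 FPKM in Grx2+/+ and 390.4, 329.5 and 354 in Grx2-/-. The ratio of the sums was 2.35, 2.37 and 2.38 in Grx2+/+ and 4.6, 4.87 and 4.68 in Grx2-/-. Mmp2 and Mmp14 made up 77.0, 71.0 and 75.4% of the MMP sum in Grx2+/+ and 70.2, 73.2 and 72.5% in Grx2-/-. Such ratios compare transcripts and not active proteins.

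**Figure D4:**
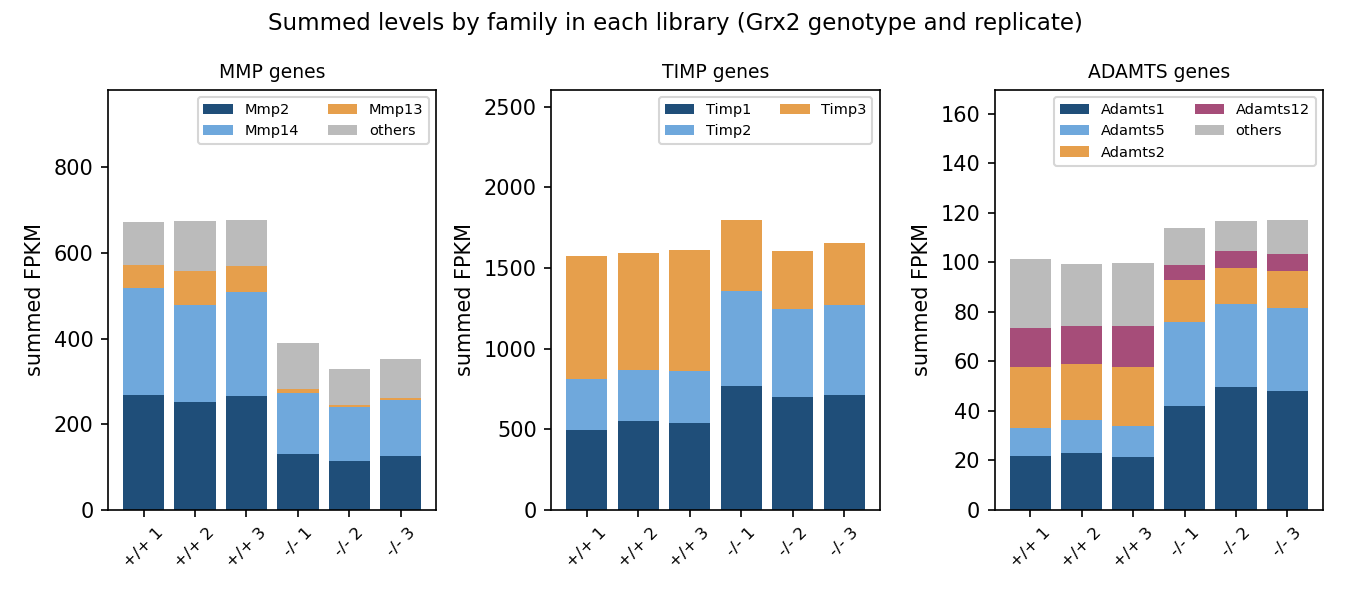
Summed FPKM per library (bars from 0, y axes) of the MMP, TIMP and ADAMTS genes, divided by the leading genes of each family; Timp4, which stayed at or under 0.116 FPKM, is left out of the TIMP bars. The MMP bars are lower in Grx2-/-, the TIMP bars overlap in height while their Timp3 share is smaller in Grx2-/-, and Adamts1 with Adamts5 fill most of the Grx2-/- ADAMTS bars.

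Proteoglycan-cleaving ADAMTS genes split between the 2 best known aggrecanases. Adamts5 was at 11.4, 13.4 and 12.4 FPKM in Grx2+/+ and 34.0, 33.5 and 33.4 in Grx2-/- (log2 fold change 1.38 ± 0.056, limma adjusted p = 3.12e-07, 2.72 times higher). Adamts4 was at 10.7, 9.18 and 9.96 FPKM in Grx2+/+ and 1.88, 1.46 and 1.42 in Grx2-/- (-2.08 ± 0.083, limma adjusted p = 2.96e-07, 6.27 times lower). The groups did not overlap for either gene. With no strand setting given, the level of Adamts4 is uncertain.

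Adamts1, which cleaves versican and aggrecan, was at 21.7, 23.0 and 21.6 FPKM in Grx2+/+ and 41.8, 49.7 and 48.0 in Grx2-/- (1.04 ± 0.064 on the log2 scale, limma adjusted p = 3.14e-06, 2.10 times higher). Adamts1 and Adamts5 are next to each other on chromosome 16 and rose together. Adamts9, another versican-cleaving member, went from 2.16, 2.48 and 2.32 to 4.02, 2.80 and 3.2 FPKM (log2 fold change 0.38, limma adjusted p = 0.0112, 1.44 times higher). Together Adamts1 and Adamts5 changed the make-up of the family: Adamts1 held 21.5, 23.1 and 21.6% of the summed ADAMTS FPKM in Grx2+/+ and 36.7, 42.5 and 41.0% in Grx2-/-, and Adamts5 held 11.3, 13.5 and 12.4% in Grx2+/+ and 29.9, 28.7 and 28.6% in Grx2-/-. The sums themselves were 101, 99.5 and 99.95 FPKM in Grx2+/+ and 114, 117 and 117 in Grx2-/-.

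The 3 ADAMTS genes that trim the amino-terminal propeptides of fibrillar procollagens changed in both directions. Adamts2, the main one in skin and bone, fell from 24.6, 22.6 and 23.7 to 17.1, 14.4 and 15.2 FPKM (log2 fold change -0.57). Adamts14 was at 4.73, 4.24 and 4.02 FPKM in Grx2+/+ and 1.03, 0.925 and 1.01 in Grx2-/- (-1.42 ± 0.066, limma adjusted p = 6.37e-07, 4.38 times lower). Adamts3, which also processes a lymphatic growth factor, was at 0.281, 0.251 and 0.221 FPKM in Grx2+/+ and 2.28, 1.75 and 1.96 in Grx2-/- (1.26 ± 0.077, limma adjusted p = 3.03e-06, 7.96 times higher by mean FPKM, and 2.99 on the log2 scale of voom). Adamts2 remained the most abundant of the 3 in all 6 libraries. Adamts14 and Adamts3 passed the filter only through the group in which they were high, so their p-values are not separate evidence of a difference.

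Adamts12 and Adamts7 encode proteases that can cleave cartilage oligomeric matrix protein. Adamts12 was at 16.0, 15.3 and 16.6 FPKM in Grx2+/+ and 5.94, 6.75 and 6.82 in Grx2-/- (log2 fold change -1.18 ± 0.059, limma adjusted p = 9.17e-07, 2.46 times lower). Adamts7, under the filter with a mean of 0.722 FPKM, had 1.15, 0.977 and 1.01 FPKM in Grx2+/+ and 0.454, 0.358 and 0.385 in Grx2-/-, which did not overlap. Comp, the gene of their substrate, moved the other way, from a mean of 1.33 to 119 FPKM.

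Adamts6, which is known to act on the matrix of microfibrils, was at 3.19, 3.25 and 3.17 FPKM in Grx2+/+ and 0.718, 0.805 and 0.886 in Grx2-/- (log2 fold change -1.22 ± 0.059, limma adjusted p = 7.64e-07, 3.99 times lower, and -1.99 with a pseudocount of 0.01). Its relative Adamts10, a fibrillin-binding member, was the tested gene that did not pass: it was at 4.17, 4.07 and 4.01 FPKM in Grx2+/+ and 4.44, 4.17 and 4.50 in Grx2-/-, a log2 fold change of 0.08 with a 95% interval from -0.04 to 0.19 (limma adjusted p = 0.201). Its groups overlapped.

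Every tested ADAMTS-like gene was higher in Grx2-/-, and in each the groups did not overlap. Among all genes tested, 42.7% were higher and 73.1% did not overlap. Adamtsl1 was at 1.63, 1.69 and 1.76 FPKM in Grx2+/+ and 5.80, 5.11 and 4.87 in Grx2-/- (log2 fold change 1.22 ± 0.067, limma adjusted p = 1.65e-06, 3.11 times higher). Adamtsl3 was at 9.38, 9.60 and 9.30 FPKM in Grx2+/+ and 25.3, 20.2 and 21.4 in Grx2-/- (1.15 ± 0.076, limma adjusted p = 4.52e-06, 2.36 times higher). Adamtsl4, which binds fibrillin-1 and is known from lens dislocation, rose from 15.7, 15.6 and 15.9 to 28.4, 23.0 and 25.0 FPKM (log2 fold change 0.66, 1.62 times higher). Adamtsl5 rose from 4.05, 4.17 and 3.80 to 8.29, 6.59 and 6.81 FPKM (0.71, 1.80 times higher). Grx2-/- replicate 1 was the highest library for each of these 4 genes. The summed level of the family, with the untested Adamtsl2 included, was 30.9, 31.1 and 30.8 FPKM in Grx2+/+ and 67.9, 54.9 and 58.1 in Grx2-/-.

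**Figure D5:**
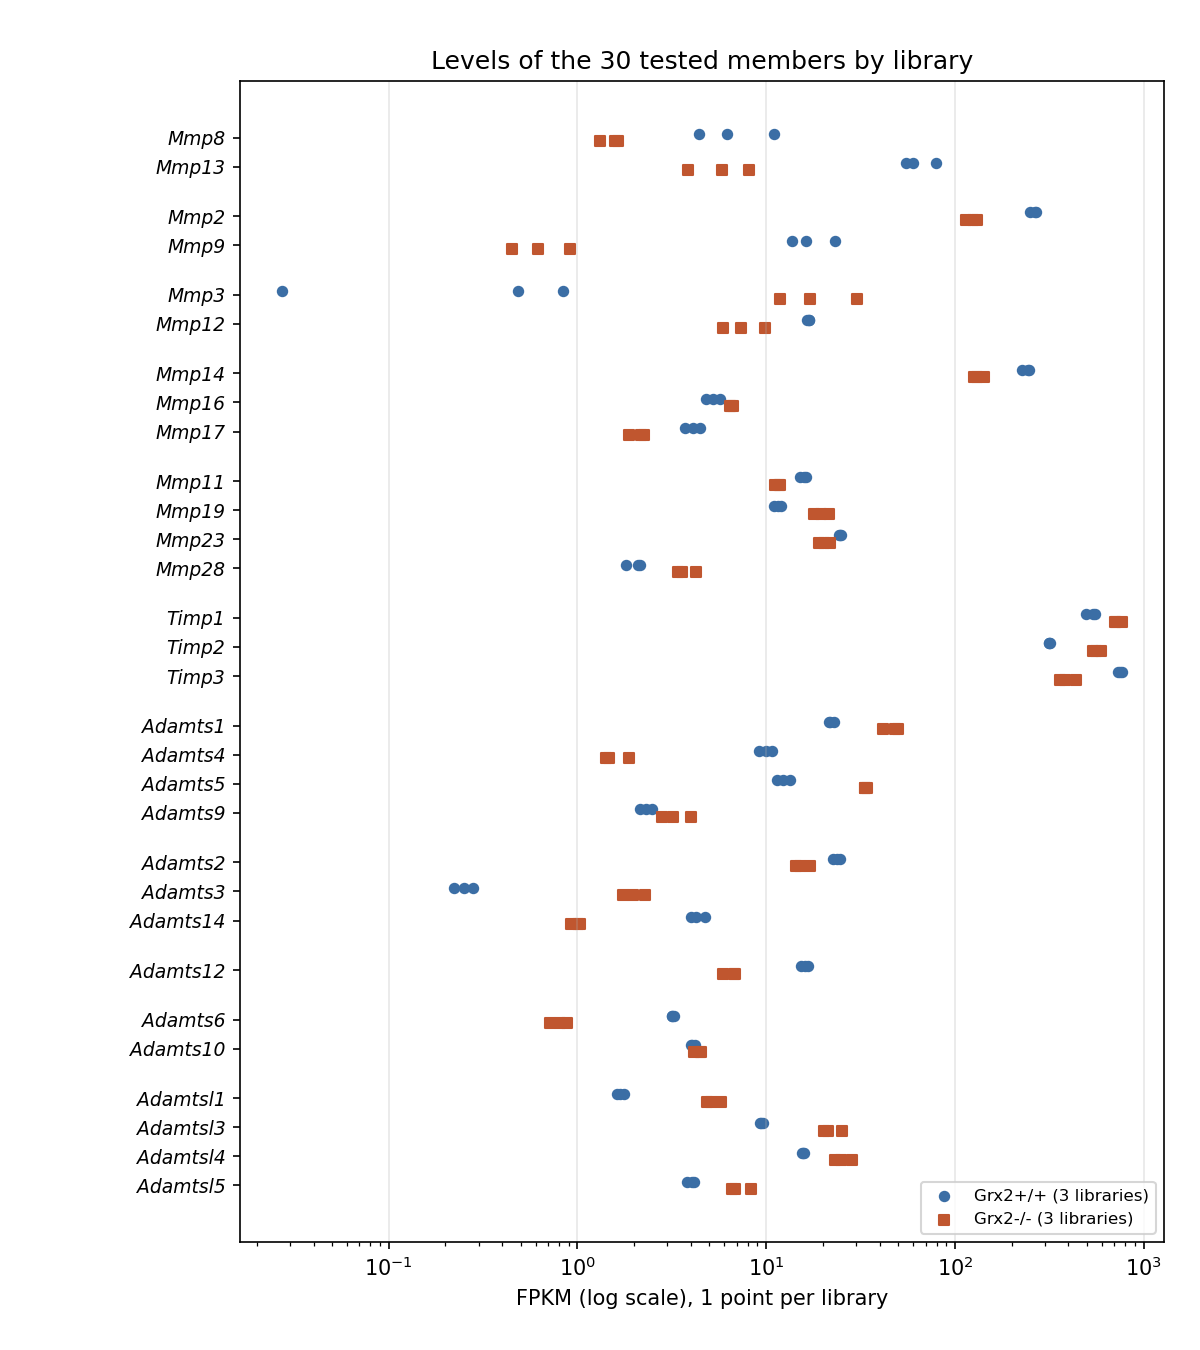
FPKM per library (x axis, logarithmic) of the 30 tested members, grouped by role from collagenases at the top to ADAMTS-like genes at the bottom; circles are the 3 Grx2+/+ libraries and squares the 3 Grx2-/- libraries. The 3 TIMP genes lie furthest right, and the groups overlap for Adamts10 alone.

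The 17 genes under the filter were Mmp1b, Mmp10, Mmp15, Mmp24, Mmp25, Mmp27, Timp4, Adamts7, Adamts8, Adamts13, Adamts15, Adamts16, Adamts17, Adamts18, Adamts19, Adamts20 and Adamtsl2. Of these, 12 stayed under 0.2 FPKM in every library and 6 at 9 reads or fewer. In the fit without a filter, in which 39.6% of 22984 genes passed, 5 of them passed: Adamts16, Adamts7 and Mmp27 lower and Mmp24 and Timp4 higher. Adamts16 was at 0.851, 0.620 and 0.825 FPKM in Grx2+/+ and 0.0217, 0.0414 and 0.0471 in Grx2-/- (306, 225 and 301 against 8, 15 and 17 reads, 20.8 times lower by mean FPKM). Mmp24 had 0, 1 and 1 reads in Grx2+/+ and 7, 5 and 6 in Grx2-/-, and it overlaps BC029722, which had a mean of 25.6 FPKM, so its reads are uncertain. Mmp15, the most abundant that did not pass there, was at 1.16, 0.933 and 1.07 FPKM in Grx2+/+ and 0.925, 0.641 and 0.593 in Grx2-/-. The other low genes did not pass either, which does not show that their levels were equal. Just above and below the filter of 1 FPKM stood Adamts3, with a mean of 1.12 FPKM over the 6 libraries, and Mmp15, with 0.886.

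Other genes of the pathway were read from 4 lists. Of 16 tested genes that activate, inhibit or clear these proteases, 8 rose, 5 fell and 3 did not pass (81.2% passed, median log2 fold change 0.23). Pcsk6, a proprotein convertase of the furin type, went from a mean of 2.15 to 21.4 FPKM (2.83, limma adjusted p = 5.96e-08), whereas Furin, which activates membrane-type MMPs and ADAMTS precursors, fell from 37.9 to 24.9 (-0.59, limma adjusted p = 1.41e-06). Ctsb, cathepsin B, had a log2 fold change of 0.94 and Sdc4, a heparan sulfate proteoglycan that binds ADAMTS proteases, one of 1.49. Reck, a membrane-anchored MMP inhibitor named after its value was seen, rose from 4.26 to 11.2 FPKM (1.21, limma adjusted p = 5e-06).

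Among 12 tested ADAM and tolloid genes, 7 rose, 2 fell and 3 did not pass (75.0%, median 0.48). Adam8 (1.59) and Adam23 (2.60), members of the membrane-bound ADAM family, and Pcolce (0.63), an enhancer of procollagen processing, rose. Bmp1, the protease that trims the carboxy-terminal propeptides of procollagens, fell from 123 to 32.3 FPKM (-1.90, limma adjusted p = 8.47e-08). Bmp1 and Adamts2, which trim opposite ends of procollagen, were thus both lower.

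Of 19 tested matrix substrates, 8 rose, 10 fell and 1 did not pass (94.7%, median -0.32). Comp (5.68) and Eln (3.85), which encodes elastin, had the largest rises, and Tnc, tenascin C, fell from 357 to 69 FPKM (-2.35), as did Col2a1, the main fibrillar collagen of cartilage (-1.35). Of 14 tested inducers and transcription factors, 8 rose, 4 fell and 2 did not pass (85.7%, median 0.19). Runx2, the osteoblast regulator, fell (-1.18), as did the transcription factor gene Ets1 (-1.02), while the AP-1 gene Jun (0.60) and the cytokine Tnf (1.12) rose. These 4 had the smallest p of their list, and its other tested AP-1 genes rose, fell or did not pass. The shares and medians of these 4 lists stand beside 67.4% and 0.09 for all genes tested.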

How the data were processed

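Messenger RNA was measured in 3 Grx2+/+ and 3 Grx2-/- libraries, grouped by the genotype label. Per the labels' protocols, RNA came from a TRIzol extraction and the library kit was VAHTS Universal V6. The authors deposited FPKM values, 1 column per library. The submitters' processing notes list HISAT2, HTSeq, R 3.2.0 and the build GRCm39. Roles, annotation, filters and strand setting were not given in the sources used here.

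Genes with a mean of at least 1 FPKM were fitted as log2(FPKM + 1) with limma 3.58.1 in R 4.3.3 (lmFit, eBayes with trend), two-sided, with Benjamini-Hochberg adjustment and no fold minimum. Whole reads were worked back from the FPKM values for all 22984 genes (tolerance 1e-06 reads, and 0.0001 for the deepest genes) and gave 40797879 to 41794919 per library, of which the listed genes held 99.72% to 99.78%. The fit was tested on simulated data. Promoters, gene order and overlaps came from RefSeq tables of GRCm38.p6, another build than the authors', which matched all 47 members by symbol (32 with a promoter).

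Members, lists and alternatives were chosen with earlier results of these data known. All members may be named; values per library are given for tested members, statistics for the largest changes of each role and the members at 50 FPKM or more, and up to 4 genes with the smallest p of each other list. Figures were drawn with matplotlib 3.10.9.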

Additional observations from a re-analysis of the deposited data

How the results depend on the processing

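The members were refitted under 18 alternatives: pseudocounts of 0.1 and 0.01, no filter or a mean of at least 5 FPKM, median-of-ratios scaling, quantile normalization, eBayes without trend or with robust estimation, voom on recovered reads, a replicate block, adjusted p under 0.01, each library left out, and Grx2+/+ replicate 2 with Grx2-/- replicate 1 left out together. Of the 30 tested members, 28 kept their direction and side of the threshold in every fit that tested them. The exceptions were Adamts10, which did not pass and turned to -0.0304 with quantile normalization, and Adamts9, which did not pass at adjusted p under 0.01. Without 1 library the counts ran from 13 to 14 higher and stayed at 15 lower. The count of 13 came without Grx2-/- replicate 1, 2 or 3, when Adamts3 fell under the filter. With a mean of at least 5 FPKM, 21 members were tested, 10 higher and 11 lower, and ADAMTS genes went from 4 higher and 5 lower to 2 and 3. The median of all genes tested was 0.09, 0.0069 with median-of-ratios scaling and -0.0265 with quantile normalization, a shift of over 0.1. The replicate block gave 14 higher and 15 lower and changed no call. The replicate numbers were not taken as pairs, since deviations of same-numbered libraries correlated at 0.107, 0.124 and 0.0199 over genes and not every library correlated best with its own number. Intervals and calls rest on 3 libraries per group, and the precision for members at 9 reads or fewer is limited by depth.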
